A study of Drosophila melanogaster with 2 samples.

Results

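Cuticle protein genes were taken as the protein-coding genes of the Ensembl annotation whose symbol begins with Cpr and a digit, Twdl, Lcp, Ccp84A or Vajk, and the rule gave 121 of 13968 protein-coding genes. They fall into 70 Cpr, 25 Twdl, 15 Lcp, 7 Ccp84A and 4 Vajk genes. The rule uses names and no measured value. The insect cuticle is secreted by the epidermis as a layer of chitin fibres embedded in structural proteins, and in Drosophila the first larval cuticle is laid down late in embryogenesis. Cpr, Lcp and Ccp84A proteins carry the Rebers and Riddiford consensus, a chitin-binding domain, while Tweedle (Twdl) and Vajk proteins are separate families of structural cuticle proteins. Many of these genes are short, stand in tandem arrays of relatives and are switched on in bursts around moults under ecdysone-induced regulators.

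Binding of Oc, the homeodomain protein encoded by ocelliless (also named orthodenticle), was measured by ChIP-seq in whole Drosophila melanogaster embryos collected at 2 to 14 hours. Oc patterns the embryonic head and recognises TAATCC. The flies were a transgenic line in which Oc carries GFP at its C terminus, and an antibody to GFP pulled down the chromatin, so the lists report the tagged protein. The series has 1 group, with 2 libraries labelled as biological replicates 2 and 3 and 1 control alignment shared by both. Sex was not recorded, no untagged line was analysed here, and the labels do not say whether the tagged copy replaces the native one. In chromatin from whole embryos, strong binding in few cells and weak binding in many cannot be told apart. With 1 group there is no contrast between conditions and no p-value is given. Shares carry 95% Wilson intervals that cover counting error over genes or peaks only, and since neighbouring genes can share a peak, neither genes nor peaks are replicates.

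The depositors gave a list of 30000 peaks for each replicate, a list of 30000 peaks from the pooled alignments, and a set of peaks that passed their test of irreproducible discovery rate (IDR), whose number is 19.5% of that of the pooled list. A peak is an interval with a summit, the base of highest signal, and a signal value that is the authors', on a scale that was not stated. All IDR peaks were in the pooled list and no other pooled peak had a higher signal than any of them, so the IDR set is the top of the pooled list, down to a signal of 146. The sources used here give no read number for either library, so depth is unknown. A summit counted as nearest to the protein-coding gene whose transcription start lay closest, and was counted separately for every gene with a start within 500 bp.

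Few cuticle protein genes had an IDR summit at their start site. An IDR summit was nearest to 19 of 121 members, or 15.7% (10.3 to 23.2%), against 21.1% of all protein-coding genes. An IDR summit within 500 bp of a start site was found at 6 members, or 4.96% (2.29 to 10.4%), against 14.7% of all protein-coding genes, so the whole interval lay below the share of all genes. The 6 were TwdlF, Ccp84Ac, TwdlN, Cpr65Av, Cpr76Bc and Cpr65Az, and in each the summit lay upstream of the start. In the longer pooled list the shares lay closer to those of all genes. A pooled summit was nearest to 58 members, 47.9% (39.2 to 56.8%), against 42.3%, and lay within 500 bp of 35 members, 28.9% (21.6 to 37.6%), against 32.5%. The second count depends on the settings: with the 15000 strongest pooled peaks it was 17 members against 25.3% of all genes, and within 250 bp it was 15 members against 26.9%.

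The sequence under these 6 start-site summits is shown because they are the members with IDR binding at the promoter. Each window is 101 bases of the plus strand of dm6 centred on the summit. Capitals mark TAAT, the core of homeodomain sites, on either strand (ATTA is its reverse complement). None of the 6 windows holds TAATCC, and the window at Ccp84Ac holds no TAAT. Over all IDR summits 8.30% of such windows hold TAATCC and 70.9% hold TAAT, so 6 windows are too few to show a lack of either.
TwdlF, chr3R:4246719-4246819, plus strand: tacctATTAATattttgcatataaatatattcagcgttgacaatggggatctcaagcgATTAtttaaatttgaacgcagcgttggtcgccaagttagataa
Ccp84Ac, chr3R:6696524-6696624, plus strand: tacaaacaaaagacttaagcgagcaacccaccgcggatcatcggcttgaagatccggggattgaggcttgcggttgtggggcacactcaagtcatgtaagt
TwdlN, chr3R:26631324-26631424, plus strand: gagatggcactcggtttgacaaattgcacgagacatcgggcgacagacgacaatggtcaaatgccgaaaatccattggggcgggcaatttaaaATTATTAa
Cpr65Av, chr3L:6140255-6140355, plus strand: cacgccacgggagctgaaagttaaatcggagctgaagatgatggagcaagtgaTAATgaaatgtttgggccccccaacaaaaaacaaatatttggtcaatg
Cpr76Bc, chr3L:19520726-19520826, plus strand: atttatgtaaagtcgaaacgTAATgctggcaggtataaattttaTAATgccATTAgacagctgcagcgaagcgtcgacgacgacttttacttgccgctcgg
Cpr65Az, chr3L:6160418-6160518, plus strand: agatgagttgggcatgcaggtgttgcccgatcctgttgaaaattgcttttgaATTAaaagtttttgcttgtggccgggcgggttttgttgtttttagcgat

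The strongest summit at a member and the 3 member summits that do hold TAATCC lay away from start sites. They are shown in the same way, with TAATCC, its reverse complement GGATTA and other copies of TAAT in capitals. The first window is the summit of highest signal, 7473 bp upstream of Cpr100A. In the second, TAATCC lies on the plus strand at chr2L:14430193-14430198. In the others it lies on the minus strand, at chr3L:21290528-21290533 and chr3R:30862570-30862575.
Cpr100A, chr3R:30859998-30860098, plus strand: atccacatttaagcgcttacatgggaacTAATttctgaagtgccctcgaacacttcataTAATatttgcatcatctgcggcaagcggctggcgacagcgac
Cpr35B, chr2L:14430105-14430205, plus strand: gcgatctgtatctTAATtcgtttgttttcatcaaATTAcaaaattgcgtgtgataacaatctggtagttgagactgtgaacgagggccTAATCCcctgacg
Cpr78Ca, chr3L:21290523-21290623, plus strand: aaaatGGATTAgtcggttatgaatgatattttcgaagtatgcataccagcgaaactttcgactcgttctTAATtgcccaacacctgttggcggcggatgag
Cpr100A, chr3R:30862541-30862641, plus strand: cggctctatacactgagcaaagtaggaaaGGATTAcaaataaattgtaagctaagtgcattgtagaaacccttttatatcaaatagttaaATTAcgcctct

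Many members, 73 of 121, share a core promoter element that the naming rule did not use, TATAAA from 45 to 15 bases before the start. The other 48 lack it, and 8.74% of all protein-coding genes hold it. The 60 bases before the start are shown on the coding strand for the 4 start-bound members whose core promoter holds TATAAA, the letters of the TATA box, which is in capitals.
TwdlF, chr3R:4246960-4247019, plus strand: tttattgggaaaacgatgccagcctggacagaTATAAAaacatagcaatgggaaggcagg
Ccp84Ac, chr3R:6696272-6696331, minus strand: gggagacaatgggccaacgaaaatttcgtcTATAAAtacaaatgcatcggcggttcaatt
TwdlN, chr3R:26631809-26631868, plus strand: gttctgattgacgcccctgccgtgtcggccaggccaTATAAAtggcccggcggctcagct
Cpr65Av, chr3L:6139975-6140034, minus strand: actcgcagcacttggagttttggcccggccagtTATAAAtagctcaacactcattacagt

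TATAAA began 28 bases before the start in TwdlF, 30 in Ccp84Ac, 24 in TwdlN and 27 in Cpr65Av. The other 2 start-bound members, Cpr76Bc and Cpr65Az, have no TATAAA in the window from 45 to 15 bases before the start.

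TwdlF (FBgn0037224, chr3R:4247020-4248313) had the highest signal of the 6 start-site summits, 272, at 251 bp upstream. It was 118 in replicate 2 and 147 in replicate 3, and its rank in the IDR set was 1925. Ccp84Ac (FBgn0004781, chr3R:6695148-6696271) had a summit 303 bp upstream with signal 224, which was 132 in replicate 2 and 96.0 in replicate 3. These promoters were the only members with a start-site summit above the median signal of the IDR set, 217.

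The remaining 4 start-site summits were weaker than that median. At TwdlN the summit lay 495 bp upstream with signal 183, and it was 95.5 in replicate 3. The nearest summit of replicate 2 stood 108 bp away, just beyond the 100 bp that counted as found. At Cpr65Av the summit lay 331 bp upstream with signal 170, and the replicates differed widely, with 129 (rank 2517 of its list) in replicate 2 and 45.9 (rank 11301) in replicate 3. Cpr76Bc had signal 158 at 169 bp upstream, with 73.1 and 72.8 in replicates 2 and 3. Cpr65Az had signal 146 at 346 bp upstream, with 85.8 and 56.6. It is the weakest member of the IDR set and stands almost at its lower edge, at rank 5842.

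Just outside the 500 bp limit stood the summits of TwdlS at 581 bp, Cpr78Cb at 664 bp and Cpr67Fb at 808 bp upstream, with signals 228, 186 and 242. All were found in both replicates: 133 and 103 at TwdlS, 90.5 and 93.6 at Cpr78Cb, and 116 and 117 at Cpr67Fb, for replicates 2 and 3. By rank in their own lists the replicates lay closer together at these 3 genes than at Cpr65Av. The ranks in replicates 2 and 3 were 2381 and 3107, 4676 and 3761, and 3016 and 2404, in the same order.

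**Figure D1:**
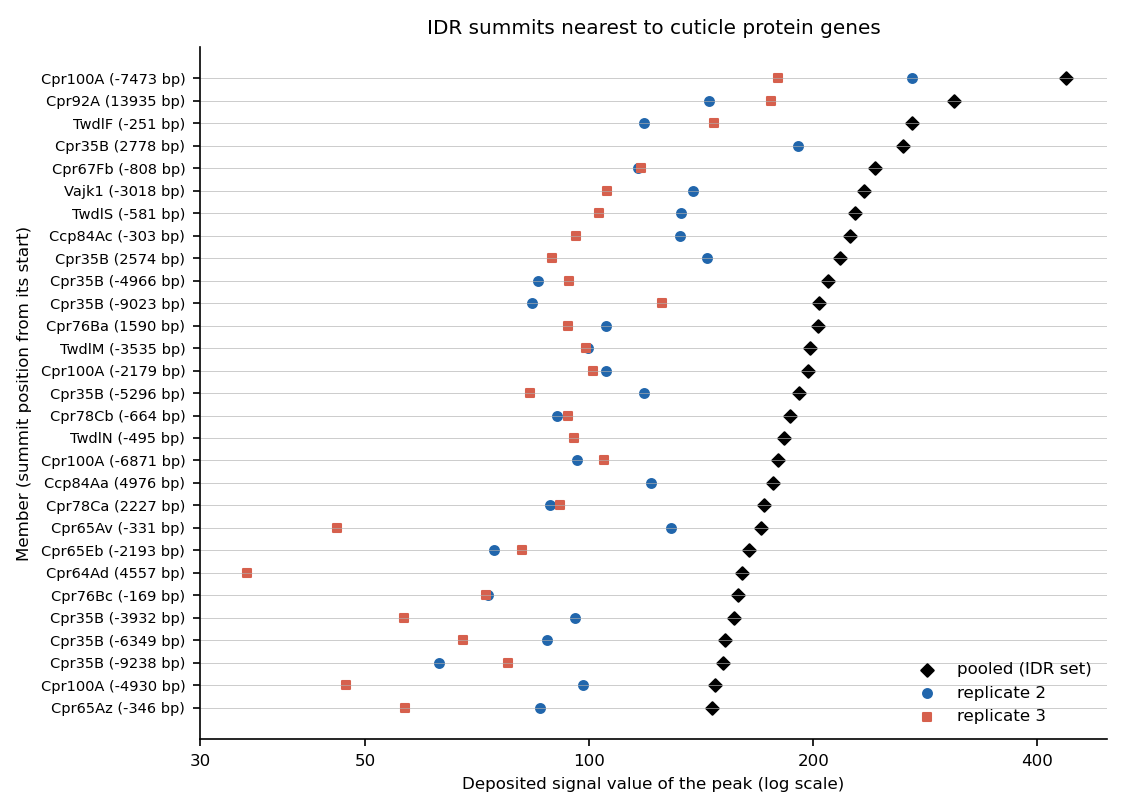
Deposited signal value (log scale) of the 29 IDR summits nearest to cuticle protein genes, in order of signal, with the position of the summit from the start site in bp (negative, upstream). Diamonds are the IDR set, circles replicate 2 and squares replicate 3, and a missing circle or square means that no summit of that replicate lay within 100 bp; signals run from 146 to 437, and 25 of 29 summits were found in both replicates.

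The 29 IDR summits nearest to members were spread unevenly. One summit was nearest to 17 members, while Cpr100A had 4 and Cpr35B had 8. The other 102 members had none. Cpr35B (FBgn0028871, chr2L:14424315-14425189), a gene with the chitin-binding consensus, had the most summits. They ran from 2778 bp on its downstream side to 9238 bp upstream. The highest had a signal of 264, 191 in replicate 2, with no replicate 3 summit within 100 bp (the nearest was 162 bp away). The 7 others ranged from 151 to 217 and were all found in both replicates. Of the 8, 1 lay at the start of the noncoding gene lncRNA:CR44732 and 2 in its exons, and the next coding gene along was Pburs, a subunit of the hormone bursicon, or CG15283. Cpr35B has a territory, the bases nearest to its start, of 16796 bp against a median of 2788.5 bp for members.

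Cpr100A (FBgn0039805, chr3R:30867521-30869184) had the strongest summit of any member. Its signal was 437, with 271 in replicate 2 and 179 in replicate 3, and its rank in the IDR set was 719. This summit lies 7473 bp upstream of Cpr100A and 7733 bp from the start of tll, the terminal gap gene tailless that also acts in the embryonic head, so the assignment to Cpr100A rests on a small difference in distance. The other 3 summits were 197 at 2179 bp, 179 at 6871 bp and 148 at 4930 bp upstream. The 3 were found in both replicates, at 105 and 101, at 96.5 and 105, and at 98.2 and 47.1 in replicates 2 and 3. At the 500 bp limit Cpr100A had no IDR summit.

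Cpr92A (FBgn0038714, chr3R:19597502-19598955) was assigned the second highest summit, 309, from 13935 bp away. It had 145 in replicate 2 and 176 in replicate 3 and lay in an intron of Dys, the gene of the muscle and synapse protein dystrophin. Other summits in introns of genes outside the set were those of Vajk1, 234, in Ance-3, of Ccp84Aa, 177, in the Hox gene pb, and of Cpr64Ad, 160, in CG43367. The replicate values were 138 and 106 for Vajk1. For Ccp84Aa replicate 2 had 121 and replicate 3 had no summit nearer than 7923 bp. For Cpr64Ad replicate 3 had 34.7 and the nearest summit of replicate 2 was 135 bp away. By annotation, 16 of the 29 summits were intergenic, 7 lay within 500 bp of a start site (6 at members and 1 at lncRNA:CR44732), 4 in introns and 2 in noncoding exons.

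The remaining summits outside start regions were those of Cpr76Ba, TwdlM, Cpr78Ca and Cpr65Eb. Cpr76Ba had 203, with 105 and 93.7 in replicates 2 and 3. TwdlM had 198, with 99.8 and 99.2. Cpr78Ca had 172, with 88.5 and 91.5, and Cpr65Eb had 164, with 74.6 and 81.2. Their ranks in the lists of replicates 2 and 3 were, in the same order, 3609 and 3754, 3980 and 3348, 4887 and 3958, and 6493 and 4898.

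The 29 summits of cuticle protein genes were weaker by their median than the IDR set as a whole. Their median signal was 192 against 217 over the set, and 8 of 29 (27.6%) lay above the median of the set. None was among the 500 with the highest signal. The lowest q-value of the list, which is the highest on the deposited -log10 scale, was reached by 62.1% of the members' summits against 72.0% of all IDR peaks. Both replicates held 25 of the 29, or 86.2% (69.4 to 94.5%), against 93.6% of all IDR summits, and each replicate held 27. Over the 25 found in both, Spearman's rho between the replicate signals was 0.458 and Pearson's r of the log2 signals was 0.485, against 0.675 and 0.778 over 5472 IDR summits. These correlations are across peaks of the same 2 libraries and shared control, cover a narrower range of signals at the members, and are given without a test.

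Pooled summits were present at many member starts but seldom reached the IDR set. Of 35 members with a pooled summit within 500 bp, 6 also had an IDR summit there, 17.1% (8.10 to 32.7%), against 45.03% of 4546 protein-coding genes. A summit of replicate 2 lay within 500 bp of 35 members and one of replicate 3 of 31, a mean share of 27.3% ± 2.34 (SD, n = 2), against 35.1% ± 3.16 (SD, n = 2) of all protein-coding genes. Both replicate lists had a summit there in 26 members, 21.5% (15.1 to 29.6%), against 28.1%.

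The members with the highest pooled signal at the start but no IDR summit there were TwdlW (139), Cpr78Cb (139), Cpr73D (138), Cpr65Ea (124) and TwdlH (117). Next came TwdlY (113), TwdlD (95.4), TwdlT (90.3), Cpr78Ca (83.0) and Ccp84Ag (79.3). The replicates did not carry all of these evenly. At TwdlW, 46 bp downstream of the start, replicate 2 had 34.3 and replicate 3 had no summit within 100 bp. Replicate 2 also had a stronger summit, 69.0, within 500 bp of that start, and replicate 3 had none there. At Cpr78Cb, 23 bp upstream of a start, replicate 2 had 34.5 and replicate 3 had 96.3. At Cpr73D, 305 bp upstream, the values were 87.6 and 43.0, and at Cpr65Ea, 374 bp upstream, 72.8 and 53.7. TwdlH, 453 bp upstream, had 64.7 and 56.3. Away from start sites, a pooled summit missed the IDR set narrowly at 3 members. Cpr100A had 145 at 6472 bp upstream of its start. TwdlT had 144 at 5497 bp downstream and TwdlX had 144 at 1863 bp downstream.

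Below the IDR set, members had 121 pooled summits with a median signal of 61.1, against 59.8 over all such summits. Both replicates held 57 of the 121, 47.1%, against 45.1%. In this range 28.9% of the members' summits lay within 500 bp of a start, against 16.1% of all. TwdlT had 8 pooled summits and Cpr62Ba had 6, all below the IDR set, and 63 members had no pooled summit nearest to them.

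Summits near the members' starts lay mostly upstream, and farther out than at other genes by these counts. Of the pooled summits within 500 bp of the nearest start, 41 were at members, and 34 of them (82.9%) lay upstream, against 66.5% over all genes. Their median distance was 255 bp against 129 bp. Within 100 bp lay 9 of the 41 (22.0%) against 41.5%, and between 200 and 500 bp lay 23 (56.1%) against 34.2%. The 6 IDR summits showed the same shift, with a median of 317 bp against 123 bp, none within 100 bp against 41.7%, and 5 of 6 between 200 and 500 bp. The IDR summits are part of the pooled list, so the counts are not independent of each other. Of the members 91.7% have a single annotated start, against 73.4% of all genes, and the part of this in the shift was not tested.

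**Figure D2:**
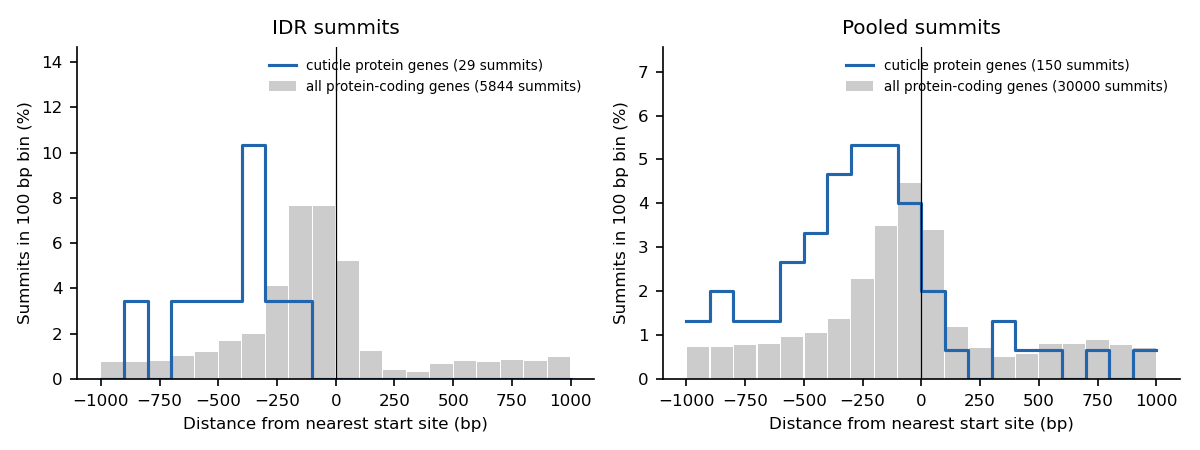
Share of summits (%) in 100 bp bins of distance from the nearest start site (bp, negative upstream), for the IDR set and the pooled list, with cuticle protein genes as a line and all protein-coding genes, members included, as grey bars. Percentages are of all summits assigned to the group; no IDR summit of a member falls within 100 bp of a start, while the bars are highest in the 2 bins that cover the 200 bp upstream of it.

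Counts by family rest on few genes, and for IDR summits most lay near the 21.1% of all genes, with wide intervals. Tweedle genes, named for the squat bodies of their mutants, had a pooled summit nearest in 17 of 25 (68.0%, 48.4 to 82.8%), against 42.3% of all genes. IDR summits were nearest to 4 of the 25 (6.40 to 34.7%): TwdlF, TwdlS, TwdlM and TwdlN. The Cpr family had IDR summits nearest to 12 of 70 genes (17.1%, 10.1 to 27.6%) and pooled summits nearest to 32. Ccp84A genes had IDR summits nearest at 2 of 7 (8.22 to 64.1%) and pooled summits at 4 of 7. All 4 Vajk genes had a pooled summit nearest, and 1 (Vajk1) had an IDR summit (4.56 to 69.9%).

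The larval cuticle protein genes of the Lcp family had the lowest counts of the 5 families. None of the 15 had an IDR summit nearest (an upper Wilson bound of 20.4%), against 21.1% of all genes. A pooled summit was nearest to 1 (1.19 to 29.8%), against 42.3%. This was Lcp65Ad, with signal 47.0 at 168 bp upstream, 31.4 in replicate 2 and 17.9 in replicate 3. Lcp1 and Lcp2, larval cuticle genes of an array of 4, had no summit in any list. The median territory of Lcp genes is 1584 bp, the shortest of the 5 families. Among other genes with territories up to 2179 bp, 7.77% had an IDR summit nearest and 18.4% a pooled one. The Lcp intervals hold both of these shares. Of the 15, 6 have start regions of which at least 10% is repeated elsewhere in the genome, where reads may not map to 1 place, and the part of this in the counts was not tested.

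The extreme cases of repeated start regions are tandem copies. Promoters of Lcp65Ab1 and Lcp65Ab2 were identical over 97.0% of 303 aligned columns (250 bases before to 50 after the start), and so were those of Cpr65Ax1 and Cpr65Ax2. The last 60 bases before the start show it for the Lcp pair, where the annotated starts differ by a few bases and the TATA box, in capitals, sits in the same context.
Lcp65Ab1, chr3L:6149488-6149547, plus strand: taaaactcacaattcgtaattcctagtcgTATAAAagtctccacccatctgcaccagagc
Lcp65Ab2, chr3L:6146614-6146673, plus strand: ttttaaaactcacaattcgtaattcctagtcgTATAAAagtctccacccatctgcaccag

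In Lcp65Ab1 84.3% of the 50-base words around the start occur elsewhere in the genome, and in Lcp65Ab2 the share is the same. It is 73.6% in Cpr65Ax1 and 71.5% in Cpr65Ax2. At 11 members the share was 10% or more, and of these Ccp84Aa alone had a summit nearest in the IDR set or the pooled list. At 100 members no such word was repeated. Without the 11, the counts are 18 members with an IDR summit nearest and 6 within 500 bp, of 110, and the count within 500 bp is the same as over all 121.

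By chromosome arm, IDR summits were nearest to 9 of 45 members on 3L (20.0%, against 23.1% of all genes of the arm), 8 of 31 on 3R (25.8% against 21.6%) and 2 of 9 on 2L (22.2% against 20.3%), so these shares lay near those of the arms. On 2R, which holds 28 members, there was none (an upper Wilson bound of 12.1%), against 19.9% of all protein-coding genes of that arm. Pooled summits were nearest to 6 of these 28, 21.4% (10.2 to 39.5%), against 40.5%. A summit of replicate 2 lay within 500 bp of 3 of the 28 members on 2R, against 31.3% of all genes of the arm. One of replicate 3 lay there at 1 member, against 37.8%. The arrays Lcp1 to Lcp4, Cpr47Ea to Cpr47Eg and Cpr49Aa to Cpr49Ah hold 19 of the 28, and in their spans lay 0, 5 and 3 pooled summits. Per 100 kb these are 0, 18.7 and 7.78, against 21.8 over the genome. None of the 8 members on X had an IDR summit, against 21.1% of genes there, while 6 of the 8 had a pooled summit nearest, against 46.7% of genes there.

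Arrays were defined as runs of at least 3 members whose neighbours start within 20 kb, which gave 16 arrays with 88 members over 268 kb. Inside them lay 12 IDR summits, 4.48 per 100 kb against 4.25 over the genome, and 62 pooled summits, 23.2 per 100 kb against 21.8. An IDR summit was nearest to 16 of the 88 members in arrays (18.2%) and to 3 of the 33 others (9.09%). The share of all protein-coding genes was 21.1%, above both, and the count of the others rests on 3 genes. The largest array runs from Lcp65Ag3 to Cpr65Az on 3L and holds 17 members in 31.2 kb. It had 4 IDR summits, at Cpr65Av, at Acp65Aa (207), at CG13297 (163) and at Cpr65Az. Another, of 329, lies past its end and is nearest to Prdm13, which encodes a zinc-finger protein.

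In the middle of that array, and at its end from Lcp65Ag3 to Lcp65Ae, the pooled list was empty. Between the summit of Lcp65Ad and that of Acp65Aa no pooled summit lay over Lcp65Ac, Lcp65Ab2, Cpr65Ax1, Lcp65Ab1, Cpr65Ax2 and Lcp65Aa, of which 5 have start regions that are at least 10% repeated. At the Lcp65Ag3 end none lay over Lcp65Ag3, Cpr65Au, Lcp65Ag2, Lcp65Ag1, Lcp65Af and Lcp65Ae. There Lcp65Ag3, Lcp65Ag2 and Lcp65Ag1 have start regions at least 10% repeated, and Cpr65Au, Lcp65Af and Lcp65Ae have no repeated start sequence. Replicate 3 had a weak summit of 22.0 within 500 bp of Lcp65Ac and one of 20.3 nearest to Lcp65Ae. The Tweedle array from TwdlM to TwdlD on 3R spans 21.9 kb and holds 12 members, 2 IDR summits (TwdlN and TwdlS) and 8 pooled summits. The Ccp84A array spans 18.2 kb and holds 7 members, 1 IDR summit (Ccp84Ac) and 4 pooled summits. The array from Cpr78Ca to Cpr78Cc, with 3 members in 9.31 kb, had 8 pooled summits and 1 of the IDR set. By contrast, no pooled summit lay inside the arrays Cpr64Aa to Cpr64Ad and Cpr72Ea to Cpr72Ec.

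**Figure D3:**
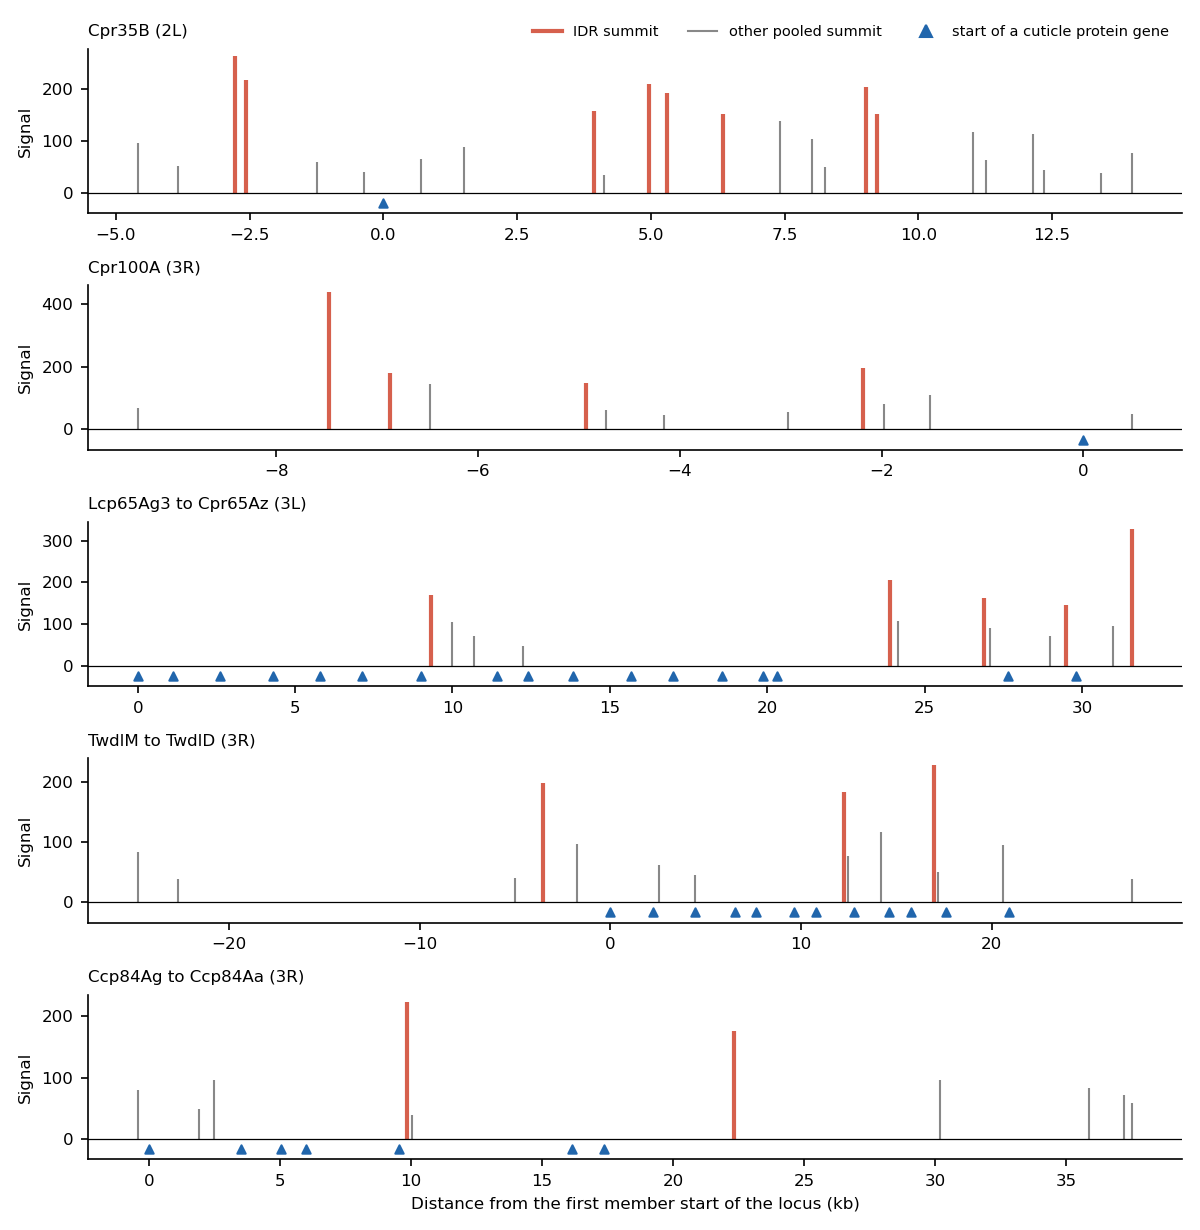
Pooled summits along 5 loci, with distance from the first member start (kb) on the horizontal axis and the deposited signal of the pooled list on the vertical axis. Orange lines are summits of the IDR set, grey lines other pooled summits and blue triangles start sites of members; Cpr35B has 8 IDR summits and Cpr100A has 4, mostly away from the start, and in the Lcp65Ag3 to Cpr65Az array 17 members share a few.

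Cuticle protein genes are small. Their median length was 1030 bp against 2156 bp for all protein-coding genes, their median total intron length 72 bp against 251 bp, and their median territory 2788.5 bp against 4333 bp. Per territory they had 5.04 IDR summits per 100 kb against 4.25, but without Cpr35B and Cpr100A (left out after their values were seen) the density was 3.099. For pooled summits it was 26.1 against 21.8, and 21.5 without these genes.

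Compared at like territory, the members' share with an IDR summit nearest did not stand to one side of other genes. In the first quartile of territories, up to 2179 bp, 2 of 43 members had one (4.65%, 1.28 to 15.5%), against 7.77% of other genes. In the next it was 7 of 37 (18.9%, 9.48 to 34.2%) against 12.6%, in the third it was 6 of 28 (21.4%, 10.2 to 39.5%) against 21.4%, and in the last 4 of 13 (30.8%, 12.7 to 57.6%) against 42.7%. For pooled summits all 4 shares of members were above those of other genes, at 20.9% (11.4 to 35.2%) against 18.4%, 56.8% (40.9 to 71.3%) against 31.2%, 64.3% (45.8 to 79.3%) against 46.4% and 76.9% (49.7 to 91.8%) against 72.6%. In the second of these quartiles the whole interval lay above the share of other genes.

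The Oc motif was found at few of the members' summits, as at few summits of the whole IDR set. TAATCC was looked for on either strand, up to 50 bp from the summit, and for comparison in 2 windows as wide, with their centres 500 bp to either side. It lay at 3 of the 29 summits, 10.3% (3.58 to 26.4%), against 8.30% of all IDR summits. In the side windows it lay in 6 of 58 (10.3%) at members and in 3.41% over the IDR set, so at the members the summit and its surroundings gave the same share. TAAGCC, a variant bound by homeodomains of this class, lay at 2 of the 29 (6.90%) against 8.69%. TAAT, which every TAATCC contains, lay at 25 of the 29 (86.2%) against 70.9%, with 60.3% and 61.8% in the side windows. Base composition differs, since the median GC content of the summit windows was 44.6% at members and 40.6% over the IDR set.

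Within 500 bp of a start site, TAATCC was counted apart from any summit. It lay there in 44 members (36.4%) against 37.0% of all genes. Of these 44, 1 had an IDR summit within 500 bp (2.27%), against 16.8% of all genes with the motif. Of the 77 members without it, 5 had one (6.49%), against 13.4%. For pooled summits the members' shares were 31.8% with the motif and 27.3% without, against 35.5% and 30.8% over all genes.

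The letters that do set these promoters apart are those of the core promoter. TATAAA lay on the coding strand 45 to 15 bases before the start in 73 of 121 members, 60.3% (51.4 to 68.6%), against 8.74% of all protein-coding genes. Anywhere from 250 bases before to 50 after the start, on either strand, it lay in 74.4% against 45.8%. Other promoter elements were rare. TATCGATA, the element bound by DREF, lay in 1 member (0.826%) against 9.36%. GGTCACAC, part of the element known as Motif 1, lay in none against 7.69%, and GAGAGAG, a run of the GAGA factor's motif, lay in 2 (1.65%) against 5.86%. AACCGGTT, the palindrome bound by Grainyhead, a regulator of epidermal barrier genes, lay in none against 0.752%. TAATCC lay in 7 (5.79%) against 8.73% and TAAGCC in 11 (9.09%) against 11.2%. A match is a description of these letters and says nothing of whether a factor binds.

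Genes with a core TATAAA in general also had few IDR summits at their start. Over all protein-coding genes, 78 of 1221 with it had an IDR summit within 500 bp, 6.39% (5.15 to 7.90%), against 15.4% of those without. Among members the shares were 4 of 73 with it (5.48%, 2.15 to 13.3%) and 2 of 48 without (4.17%, 1.15 to 14.0%). Both classes of members thus stood at or below the share of all genes with a core TATAAA. For pooled summits the members' shares were 30.1% with and 27.1% without, against 21.3% and 33.6% over all genes.

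**Figure D4:**
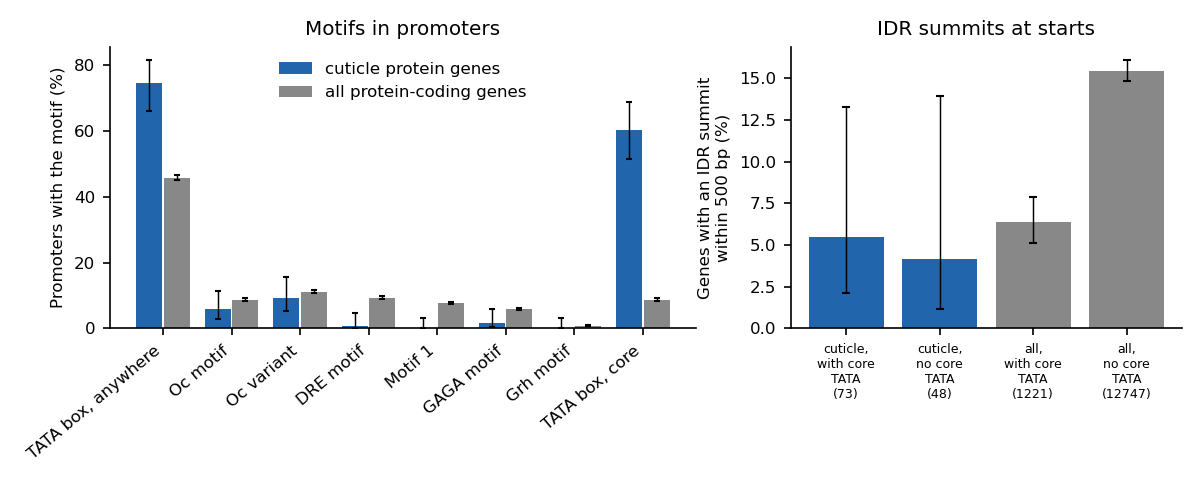
Left, share of promoters (%, 250 bases before to 50 after the start, both strands, or for the core TATA box the coding strand 45 to 15 bases before the start) that hold each motif, in cuticle protein genes and in all protein-coding genes, members included. Right, share of genes (%) with an IDR summit within 500 bp, by the presence of the core TATA box, with the number of genes in brackets; bars are shares and lines 95% Wilson intervals, and 60.3% of members hold a core TATA box against 8.74% of all genes.

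Genes that build, tan or regulate the cuticle were taken as 5 lists of 67 genes in all. Beside them, 21.1% of all protein-coding genes had an IDR summit nearest and 14.7% had one within 500 bp. Among 10 cuticle proteins named outside the rule, 3 had an IDR summit nearest: Tb (470), a Tweedle protein under another name, Acp65Aa (207), an adult cuticle protein, and l(3)mbn (159). None of the 10 had one within 500 bp, as at most members. The intervals, 10.8 to 60.3% for a nearest summit and an upper Wilson bound of 27.8% within 500 bp, hold the shares of all genes. Of 10 genes of tanning, the cross-linking and pigmentation of the cuticle, 2 had an IDR summit nearest, y (191) and Pu (190), the second of which makes the pterin cofactor of tyrosine hydroxylase. Both lay within 500 bp of the start. For either count the interval of 5.67 to 51.0% holds the share of all genes.

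Genes of chitin synthesis and assembly had an IDR summit nearest in 13 of 23 (56.5%, 36.8 to 74.4%), against 21.1% of all genes. Within 500 bp 7 of 23 had one (30.4%, 15.6 to 50.9%), against 14.7%. The highest signals were those of the chitinase gene Cht7 (494) and the chitin deacetylase gene verm (377). Below them stood exp (284), knk (257), whose product organises chitin, the deacetylase gene serp (220) and the chitinase gene Cht6 (210). The chitin synthase gene kkv had a start-site summit with signal 191. Among 14 regulators of cuticle genes 12 had an IDR summit nearest (60.1 to 96.0%) and 8 within 500 bp (32.6 to 78.6%). They were led by the nuclear receptor gene Hr3 (1300), grh (645), Eip75B (597), vri (548), Eip74EF (370) and ftz-f1 (302), most of them part of the ecdysone response.

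Zona pellucida proteins of the apical matrix shape epidermal cells under the cuticle. Of their 10 genes, 8 had an IDR summit nearest (49.0 to 94.3%), against 21.1% of all genes. Within 500 bp 5 had one (23.7 to 76.3%), against 14.7%. The highest signals were at neo (471), mey (449), nyo (402), pio (335), cyr (310) and dyl (280). Territories differ between these genes and the members, for example 112242 bp at Eip75B and 36502.5 bp at grh against a median of 2788.5 bp, and no comparison at like territory was made for the lists.

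**Figure D5:**
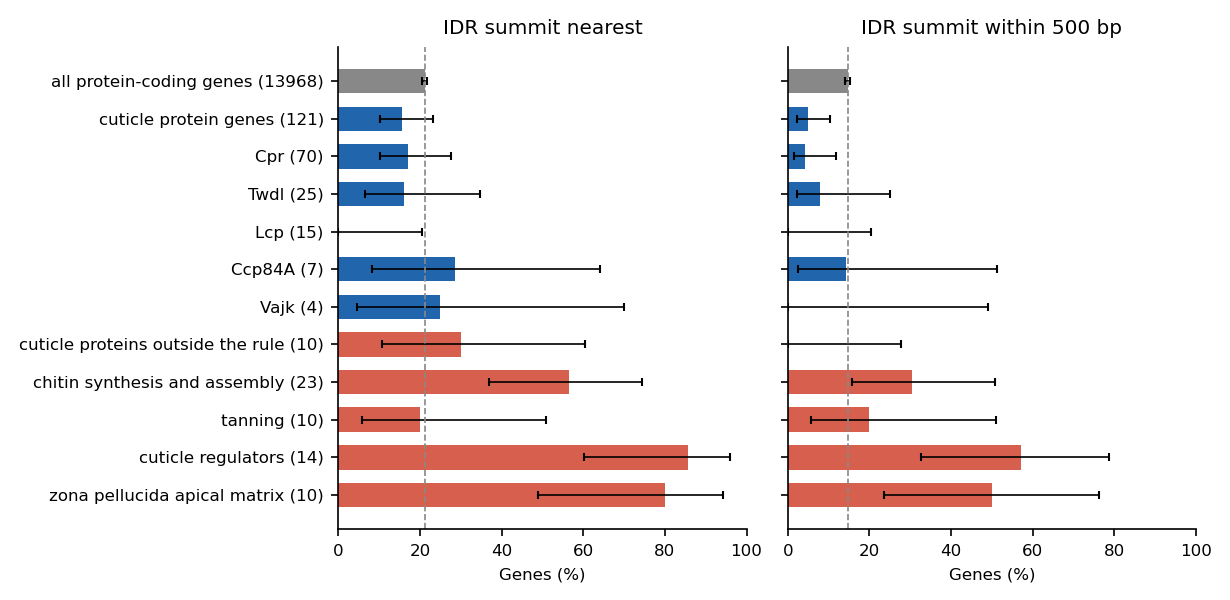
Share of genes (%) with an IDR summit nearest (left) or within 500 bp of a start (right), for all protein-coding genes (grey, dashed line), the cuticle protein genes and their 5 families (blue) and 5 lists of other cuticle genes (orange), with the number of genes in brackets and 95% Wilson intervals. Cuticle protein genes stand at 15.7% and 4.96%, against 21.1% and 14.7% of all protein-coding genes.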

How the data were processed

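ChIP-seq peak lists in the narrowPeak format were used, 1 for each of 2 replicates, 1 from the pooled alignments and 1 of IDR-thresholded peaks, all on dm6 per the labels. Signal is a score per peak deposited by the authors on a scale that was not stated, so it was used to rank and describe peaks. The q-value is deposited on the -log10 scale, and summit offsets are other positions in bases from the start of the interval, as deposited. The aligner, peak caller, IDR threshold and depth are not given in the sources used here. The age field of the labels gives no embryonic age, so the source name was used. The labels name separate biological replicates.

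Summits were assigned with pandas 2.3.3, numpy 2.4.6, biopython 1.88 and scipy 1.17.1 under Python 3.11.15, with Ensembl 115 (BDGP 6.54) start sites and the dm6 sequence of RefSeq. Of 13968 genes, 13764 have bases nearest to their own starts, and these are the background for nearest summits. Replicate summits matched within 100 bp. The steps were tested on simulated peaks. Figures used matplotlib 3.10.9. The members and lists were chosen with earlier results of these data known. Genes are named by rule: members with an IDR summit, the 10 with the highest pooled signal at a start without one, the 5 with most pooled summits, the first 2 of a family with none, up to 6 per list by signal, and near-identical promoter pairs. CG13297, Prdm13, kkv, TwdlX, Lcp65Ad, neighbouring genes and members named in arrays fall outside the rule, having been chosen with their values in view. Alternatives changed the peak threshold, distances, matching, start sites and replicates.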

Additional observations from a re-analysis of the deposited data

How the results depend on the processing

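With the IDR peaks above the median signal alone, 8 members had a summit nearest (against 13.6% of all genes), 2 had one within 500 bp (against 8.53%), and the summits numbered 8. An IDR summit lay within 250 bp of 1 member (against 11.8% of all genes) and within 1000 bp of 11 (against 17.9%). Pooled summits within 500 bp fell to 17 members with the stronger part of the list (15000 peaks, against 25.3% of all genes), and within 250 bp they lay at 15 members (against 26.9%). Without Cpr35B and Cpr100A, a setting added after seeing the data, 17 IDR summits were left. The share of members' summits found in both replicates was 96.6% with summits matched within 250 bp, and also 96.6% by overlap of intervals (98.5% of all IDR summits under each). Matched within 50 bp it was 79.3% against 76.7% of all, so there the members were the higher. TAATCC within 25 bp of the summit lay at 3.45% of the members' summits, against 4.45% of all. Ranked by replicate 3 alone, 14 of 121 members had a summit nearest, against 21.7% of all genes. By replicate 2 alone 21 of 121 did, against 20.96%, so the members' count moved more than the share of all genes. Within 500 bp the counts were 4 and 6 (against 16.02% and 14.2% of all genes). When noncoding genes competed for summits the count was 17 members (against 19.1%) with 21 summits. Over the alternatives run, members with an IDR summit nearest ranged from 8 to 21 and those within 500 bp from 1 to 11. Depth per library is unknown, and 29 summits leave wide intervals.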

Other observations

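Among each replicate's own peaks of highest signal, as many as the IDR set holds, a summit was nearest to 21 members in replicate 2 and to 14 in replicate 3. The lists shared 13 members, 61.9% of the first and 92.9% of the second, and all 13 also had a summit of the IDR set. The same overlap over all protein-coding genes is not given here, so these shares cannot be called high or low. Of the 19 members with an IDR summit, 1 was in neither replicate's top list.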
